A study of Arabidopsis thaliana with 18 samples.

Results

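CERES and 9 genes of the cap-binding translation initiation machinery were followed in wild-type seedlings and in seedlings of the mutants ceres-1 and ceres-2. The 10 genes were taken by locus from the authors' deposited table, which holds 27628 genes, and all 10 were found there. They are CERES (AT4G23840), the cap-binding proteins eIF4E1 (AT4G18040), eIFiso4E (AT5G35620) and nCBP (AT5G18110), the scaffolds eIF4G (AT3G60240), eIFiso4G1 (AT5G57870) and eIFiso4G2 (AT2G24050), the helicases eIF4A1 (AT3G13920) and eIF4A2 (AT1G54270), and the eIF4E-binding protein CBE1 (AT4G01290). The 9 genes other than CERES are called partners below. The question was whether their RNA, their ribosome footprints or the ratio of footprints to RNA differ when CERES is disrupted.

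Translation of most nuclear mRNAs starts when a cap-binding protein of the eIF4E family grips the cap at the 5′ end. The cap-binding protein is held by an eIF4G scaffold, which brings in the RNA helicase eIF4A and, through other factors, the small ribosomal subunit. Plants have a second form of this complex, eIFiso4F, built from eIFiso4E and an eIFiso4G scaffold, beside the eIF4F complex of eIF4E and eIF4G. CERES is a plant leucine-rich repeat protein that binds eIF4E, and the title of the series places it in non-canonical initiation complexes. CBE1 also carries a conserved site for eIF4E.

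Whole seedlings of Arabidopsis thaliana aged 9 days were collected at Zeitgeber time 5, the hours since lights on, under control conditions. The wild type was Col-0, and the mutants ceres-1 and ceres-2 are in the Col-0 background. Each genotype has 3 libraries of ribosome footprints and 3 of RNA, 18 in all. The labels do not describe the lesion in either allele, and do not say whether the 3 libraries came from separate cultures, so the spread behind the p-values may be technical. The deposited table gives a log2 fold change of each mutant over Col-0 and an adjusted p for each layer, with no value per library. Depth is therefore unknown, no level can be given, and the tissue label could not be checked against marker genes. Both mutants are compared with the same Col-0 libraries, so their values are set side by side and are not independent. A gene is called when its adjusted p is below 0.05. No sequences are shown, because the sources used here name no genome build.

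CERES RNA fell in both mutants, and CERES was the 1 member of 10 called in RNA in each. The table calls 0.0249% of the genes tested for RNA in ceres-1 and 0.137% in ceres-2. CERES RNA in ceres-1 was listed by the authors' deposited table at -4.43 on the log2 scale (adjusted p = 5.62e-08), which leaves 4.63% of the Col-0 level. For ceres-2 the authors' deposited table has it at -2.92 (adjusted p = 6.19e-05), which leaves 13.2%. It was the lowest of all 24142 genes tested for RNA in ceres-1 and among the lowest 3 of 19000 in ceres-2. In whole seedlings, fewer cells that express a gene and less RNA per cell cannot be told apart.

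The footprint log2 fold changes of CERES in the authors' deposited table were -3.77 in ceres-1 and -3.16 in ceres-2. These values correspond to 7.33% and 11.2% of Col-0, and they were not tested, since the table has no adjusted p for them. Such cells are empty for 57.6% of the genes with a footprint fold change in ceres-1 and for 38.4% in ceres-2. DESeq2, the tool named by the submitters, usually leaves out genes with few reads or with an outlying library, and which of these holds for CERES is not given. The difference between the footprint and RNA values of CERES was 0.66 on the log2 scale for ceres-1 and -0.24 for ceres-2, also without a p. Where along the gene the remaining reads lie is not given, so these values do not tell whether a full protein is made.

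**Figure D1:**
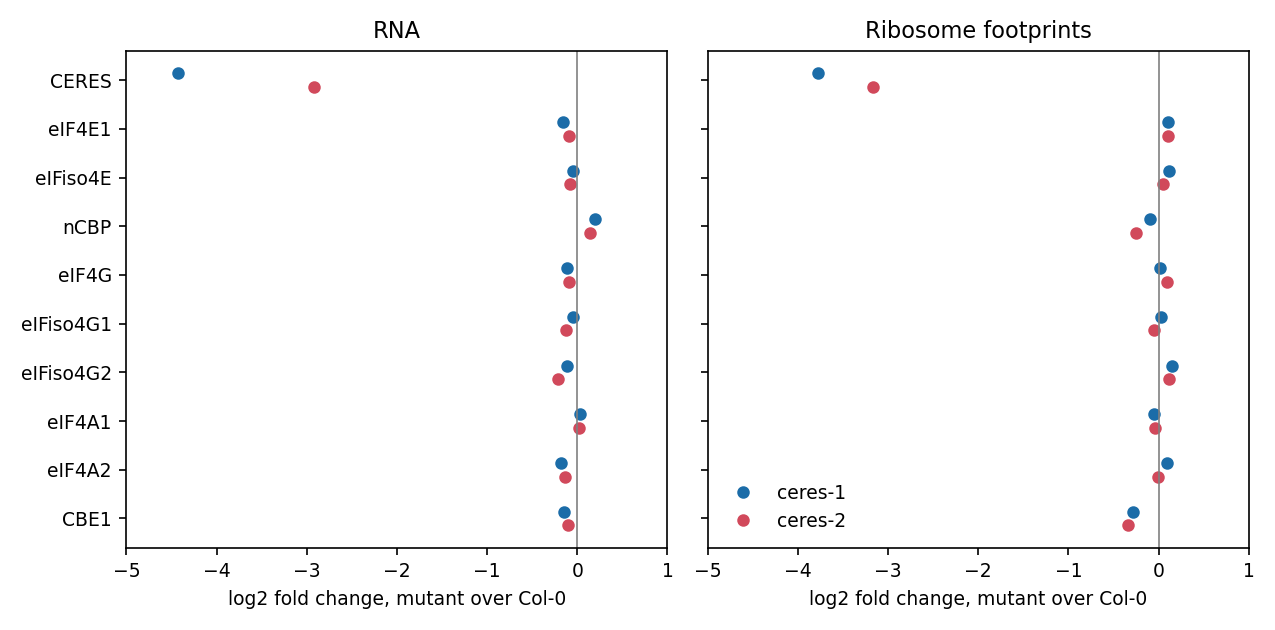
Log2 fold change of each mutant over Col-0 (x axis) for CERES and its 9 partners (rows), in RNA (left) and ribosome footprints (right). Each point is 1 value of the authors' deposited table, blue for ceres-1 and red for ceres-2. CERES lies between -4.43 and -2.92, and all partner values lie between -0.34 and 0.19.

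The genes around CERES were not called in RNA. For the 3 genes on each side of it, RNA log2 fold changes ran from -0.43 to 0.55 in the authors' deposited table. In footprints 0 of 4 tested neighbours were called in ceres-1, and AT4G23870 was the 1 of 5 called in ceres-2, where the table calls 0.642% and 1.88% of all tested genes. AT4G23870, a gene of unknown function in the table, stands in the authors' deposited table with a ceres-2 footprint log2 fold change of 1.46 (adjusted p = 0.0156). Its ceres-1 value there was 1.11, without an adjusted p, and its RNA was at 0.46 and 0.55.

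No partner was called in RNA in either mutant, where the table calls 0.0249% of all genes tested in ceres-1 and 0.137% in ceres-2. The 18 partner values of the authors' deposited table ran from -0.22 to 0.19, that is, between 0.859 and 1.14 times the Col-0 level. The adjusted p of every partner was 0.9998 for ceres-1 RNA and 0.9999 for ceres-2 RNA, a value shared by 24100 and 18878 genes. With so many genes at the same adjusted p, the RNA columns do not separate a partner that is well measured and stable from one that is poorly measured. If the adjustment was as assumed for footprints below, the unadjusted p behind it could be as low as 0.00102 in ceres-1 and 0.00574 in ceres-2. A partner with a small unadjusted p in RNA is therefore not excluded.

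Among the cap-binding proteins, eIF4E1, the cap-binding subunit of eIF4F, stands in the authors' deposited table with RNA log2 fold changes of -0.15 (ceres-1) and -0.10 (ceres-2). Its counterpart in the eIFiso4F complex, eIFiso4E, was at -0.05 and -0.09 in RNA in the authors' deposited table. The nCBP gene, for a divergent cap-binding protein, had the highest RNA values of the partners, which the authors' deposited table puts at 0.19 and 0.14.

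The scaffold transcripts all lay slightly below 0. In RNA eIF4G, the scaffold of eIF4F, was at -0.12 and -0.09, eIFiso4G1 at -0.05 and -0.12, and eIFiso4G2 at -0.11 and -0.22, in ceres-1 and ceres-2 of the authors' deposited table. The helicase genes eIF4A1 and eIF4A2 were at 0.03 and 0.02, and at -0.18 and -0.14, in the same order and table. They encode near-identical proteins and can share reads, and how reads with several matches were counted is not given, so their separate values are uncertain. CBE1 was at -0.15 and -0.10 in RNA in the authors' deposited table.

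As a group, 7 of the 9 partners lay below 0 in RNA of ceres-1 and 7 of 9 in ceres-2, against 50.7% and 50.9% of all genes tested. The median RNA log2 fold change of the partners was -0.11 for ceres-1 and -0.10 for ceres-2, beside -0.0041 and -0.0048 over all genes tested. The median size without sign was 0.12 and 0.10, beside 0.18 and 0.15 over all genes tested. These are descriptions of 9 genes and carry no test.

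No partner was called in ribosome footprints either. The table calls 0.642% of tested genes in ceres-1 footprints and 1.88% in ceres-2, and all 9 partners had an adjusted p in both. The 18 values ran from -0.34 to 0.15 in the authors' deposited table, between 0.792 and 1.11 times Col-0. Their adjusted p lay between 0.553 and 0.997.

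The footprint columns hold more information on error than the adjusted p shows. If the adjusted values are Benjamini-Hochberg values over all genes tested, the unadjusted p of a gene can be bounded from them. If that p comes from the fold change divided by its standard error, a standard error follows as well. Both are usual settings of DESeq2 but are not stated in the sources used here, so the standard errors and the 95% intervals below are called implied. Each uses the largest error that the bounds allow. They would be too narrow if the fold changes had been shrunken after the test. The implied standard errors of the 18 values lay between 0.096 and 0.17 on the log2 scale, a narrow range for fold changes of very different size.

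By this reckoning no partner had an unadjusted p below 0.05, against 9.23% of tested genes in ceres-1 footprints and 9.2% in ceres-2. All 18 implied intervals, which are computed from those p-values, therefore included 0. Their outermost bounds were -0.68 and 0.47, or 0.626 and 1.39 times Col-0. For CERES RNA, which was called, the implied interval ran from -5.69 to -3.18 in ceres-1 and from -3.93 to -1.92 in ceres-2.

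**Figure D2:**
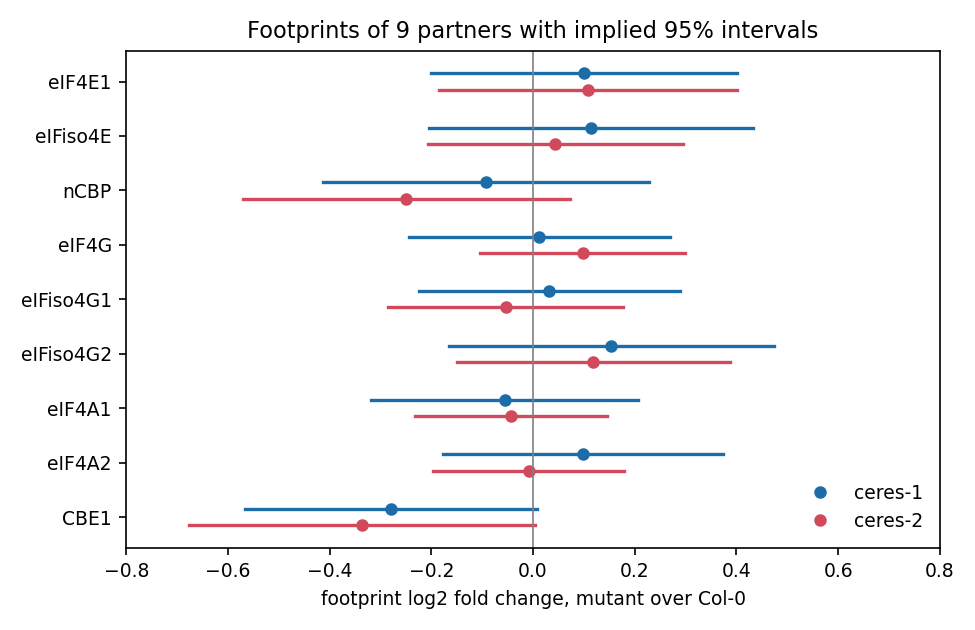
Footprint log2 fold change of each mutant over Col-0 (x axis) for the 9 partners (rows), blue for ceres-1 and red for ceres-2. Points are values of the authors' deposited table, and bars are the implied 95% intervals, all of which include 0, with CBE1 farthest to the left.

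CBE1, a protein that binds eIF4E, had the lowest footprint value of the partners in each mutant. The authors' deposited table puts its footprint log2 fold change at -0.28 for ceres-1 (adjusted p = 0.562) and -0.34 for ceres-2 (adjusted p = 0.553). This is 82.4% and 79.2% of Col-0. The implied interval ran from -0.57 to 0.0085 in ceres-1 and from -0.68 to 0.0035 in ceres-2, with unadjusted p of at most 0.0572 and 0.0524. Of all genes tested, 8.12% had a footprint value as low or lower in ceres-1 and 7.60% in ceres-2. CBE1 thus stood at the edge of the unadjusted threshold in each comparison without passing it, and far from the adjusted one.

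The cap-binding proteins lay on both sides of 0 in footprints. The eIF4E1 footprints of the authors' deposited table were at 0.10 in ceres-1 and 0.11 for ceres-2, with implied intervals from -0.20 to 0.40 and from -0.18 to 0.40. The eIFiso4E footprints were at 0.11 and 0.04 in the authors' deposited table, with intervals from -0.20 to 0.43 and from -0.21 to 0.29. The nCBP footprints were at -0.09 and -0.25 in the authors' deposited table, with intervals from -0.41 to 0.23 and from -0.57 to 0.07. After CBE1, nCBP was the lowest partner in each mutant, and its unadjusted p was at most 0.573 and 0.128.

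Scaffold footprints lay between -0.05 and 0.15. The eIF4G footprints of the authors' deposited table were at 0.01 in ceres-1 and 0.10 for ceres-2, with implied intervals from -0.24 to 0.27 and from -0.10 to 0.30. For eIFiso4G1 the values in the authors' deposited table were 0.03 and -0.05, with intervals from -0.22 to 0.29 and from -0.29 to 0.18. The eIFiso4G2 footprints were the highest of the partners, at 0.15 and 0.12 in the authors' deposited table, with intervals from -0.17 to 0.47 and from -0.15 to 0.39. Intervals that all include 0 overlap of necessity, and subunits of eIF4F and of eIFiso4F were not tested against each other.

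The helicases had the tightest footprint values in ceres-2. There eIF4A1 was at -0.04 and eIF4A2 at -0.0087 in the authors' deposited table, with implied standard errors of 0.096 each. In ceres-1 they were at -0.06 and 0.10 in the authors' deposited table, with implied standard errors of 0.13 and 0.14.

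In footprints 3 of the 9 partners lay below 0 in ceres-1 and 5 of 9 in ceres-2, against 48.6% and 49.9% of all genes tested. Their median was 0.03 and -0.0087, beside 0.0064 and 0.00055 over all genes tested. The median size without sign was 0.10 in each mutant, beside 0.12 and 0.14 over all genes tested.

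Translational efficiency, footprints relative to RNA, was not called for any partner. The table calls 0.107% of tested genes in ceres-1 efficiency and 0.041% in ceres-2, and all 9 partners were tested. Its size is taken here by subtracting the RNA log2 fold change from that of footprints. The efficiency p follows that difference: across the 12120 genes tested in ceres-1, smaller p went with a larger difference at a Spearman rho of 0.96, against 0.41 for the size of the efficiency fold change column. In ceres-2 the coefficients were 0.93 and 0.37 over 12188 genes. The efficiency fold change column of the authors' deposited table follows the footprint fold change instead, with a Pearson r of 0.99 in each mutant. These coefficients are across genes, which are not independent replicates.

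**Figure D3:**
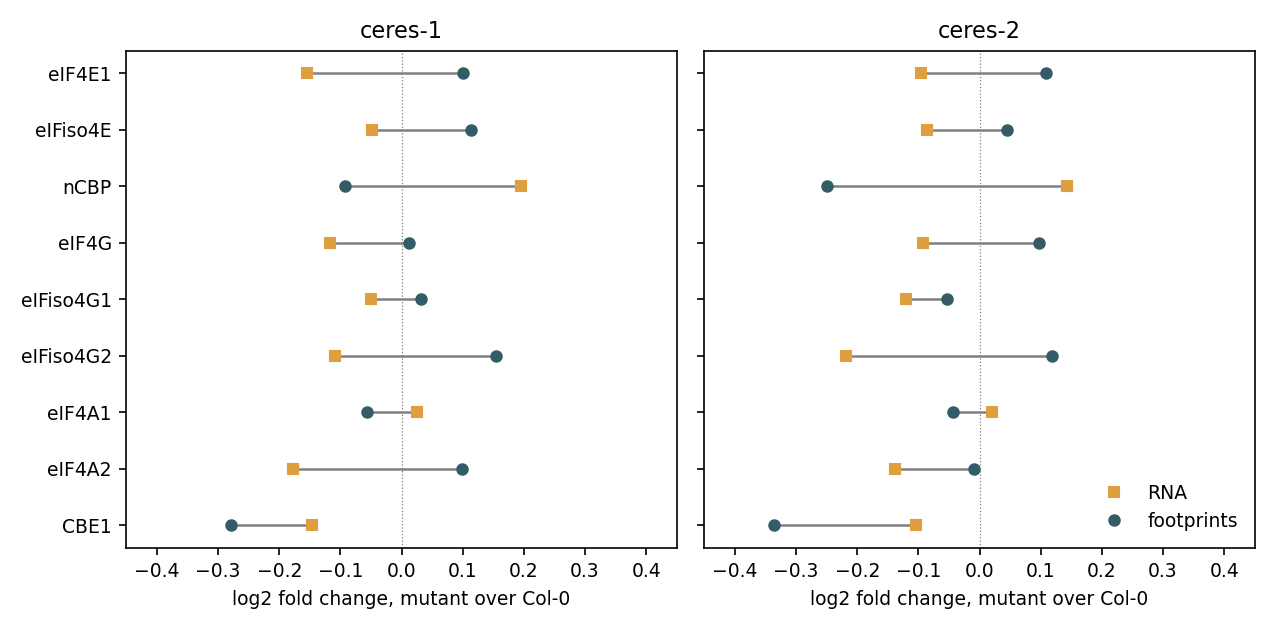
RNA (orange squares) and footprint (dark circles) log2 fold changes over Col-0 (x axis) of the 9 partners (rows) in ceres-1 (left) and ceres-2 (right), from the authors' deposited table. The grey line between them is the efficiency difference, longest for nCBP, whose footprints lie to the left of its RNA.

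The nCBP gene had the lowest efficiency difference, computed here as -0.29 for ceres-1 and -0.39 for ceres-2, with an efficiency adjusted p of 0.676 and 0.860 in the authors' deposited table. In that table's own efficiency fold change column nCBP is at -0.10 and -0.25, and CBE1 is the lowest partner in each mutant, at -0.29 and -0.30. Like eIF4A1, nCBP had RNA above 0 and footprints below 0 in each mutant. Its unadjusted p was at most 0.133 in ceres-1 and 0.0605 in ceres-2. Of all genes tested, 15.4% had a difference as low or lower in ceres-1 and 8.49% in ceres-2. The eIFiso4G2 difference was computed as 0.26 and 0.34, with an adjusted p of 0.741 and 0.877 in the authors' deposited table and an unadjusted p of at most 0.198 and 0.0867. Its value in the efficiency column of the authors' deposited table is 0.15 and 0.11. The computed eIF4A2 difference was 0.28 and 0.13, against 0.09 and -0.02 in the efficiency column of the authors' deposited table. For eIF4E1 the difference was 0.25 and 0.20, against 0.08 and 0.09 in that column of the authors' deposited table.

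The other partners were not called either. Their differences, computed here by subtraction, were 0.16 and 0.13 for eIFiso4E, 0.13 and 0.19 for eIF4G, and 0.08 and 0.07 for eIFiso4G1. CBE1 had computed differences of -0.13 and -0.23, and eIF4A1 of -0.08 and -0.06. No partner had an unadjusted p below 0.05 in efficiency, against 9.13% of tested genes in ceres-1 and 5.93% in ceres-2. The median difference over the 9 partners was 0.13 in each mutant, beside 0.00011 in ceres-1 and -0.0097 in ceres-2 over all genes tested. In each mutant 6 of the 9 partners lay above 0, and 3, namely nCBP, eIF4A1 and CBE1, lay below. Over all genes tested, 50.0% lay below 0 in ceres-1 and 51.6% in ceres-2. The median size without sign was 0.16 and 0.19 for the partners, beside 0.19 and 0.18 over all genes tested. The difference subtracts RNA values of which 7 of 9 lay below 0 in each mutant, so its signs are not a separate observation.

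Other genes of translation initiation, together with some regulators and decapping genes, gave the surroundings of the partners. Of 48 such genes in 6 lists, 0 were called in any of the 6 comparisons. Over all tested genes the shares called were 0.0249% and 0.137% in RNA, 0.642% and 1.88% in footprints, and 0.107% and 0.041% in efficiency, for ceres-1 and ceres-2. At an unadjusted p below 0.05, 1 of 40 tested list genes was left in ceres-1 footprints and 7 of 44 in ceres-2, against 9.23% and 9.2% of all tested genes. In efficiency 3 of 42 and 1 of 42 were left, against 9.13% and 5.93%.

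The list of eIF2 and start-codon factors covers delivery of the initiator tRNA and choice of the start codon, and also holds EIF5B and EIF6A. It had 10 of 12 genes above 0 in ceres-1 footprints and 9 of 12 in ceres-2. Over all genes tested, 5127 of 9967 and 7239 of 14453 lay above 0. The median of the list was 0.15 and 0.10, beside 0.0064 and 0.00055 over all genes tested. Its gene with the smallest adjusted p was AT1G36730, which encodes an eIF5, which the authors' deposited table puts at -0.46 for ceres-2 footprints (adjusted p = 0.0604) and -0.10 for ceres-1 (adjusted p = 0.927). It lay opposite to most of that list.

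Of 12 subunits of eIF3, the large factor that joins eIF4G to the small ribosomal subunit, 9 lay below 0 in footprints of each mutant, with medians of -0.03 and -0.07. The shares below 0 over all genes tested were 48.6% and 49.9%, and the mutants share their Col-0 libraries. EIF3F (AT2G39990) had a computed efficiency difference of -0.66 for ceres-1 and -0.56 for ceres-2, with an adjusted p of 0.336 and 0.858 in the authors' deposited table, whose efficiency column has -0.14 and -0.06. In RNA it was at 0.53 and 0.49, and in footprints at -0.14 and -0.07, in the authors' deposited table. EIF3F thus had RNA above 0 and footprints below, without a call in any layer. The same signs were seen in each mutant for nCBP, eIF4A1, EIF3E, EIF3H, EIF3L and EIF3M, among others.

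Of the helicase cofactor eIF4B and the poly(A)-binding proteins, 5 of 7 genes were tested in footprints of each mutant, with a median of -0.08 in each. PAB4 (AT2G23350), a poly(A)-binding protein that contacts eIF4G in the closed mRNA loop, is put by the authors' deposited table at -0.22 for ceres-1 footprints (adjusted p = 0.650) and -0.26 for ceres-2 (adjusted p = 0.374). The list of cap-complex partners and regulators has 10 genes, and also holds GCN2 and the decapping genes DCP1, DCP2, DCP5 and VCS. In it S6K1 (AT3G08730), a kinase downstream of TOR, is put by the authors' deposited table at -0.79 for ceres-2 footprints (adjusted p = 0.127). Its ceres-1 footprint value there was -0.69, without an adjusted p. The median of that list was 0.08 over 7 tested genes in ceres-1 and -0.18 over 9 in ceres-2.

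The further cap-binding proteins and relatives of eIF4A showed no call. The list of cap-binding relatives holds EIF4E1B, EIF4E1C, CBP20 and ABH1. Of these 4, the 2 tested in ceres-1 footprints were CBP20 and ABH1. The ceres-1 median of -0.01 therefore covers neither EIF4E1B nor EIF4E1C. All 4 were tested in ceres-2, with a median of 0.09. Of 3 eIF4A relatives, 2 were tested in each mutant, with medians of -0.07 and 0.02. EIF4E1C (AT1G29590), an eIF4E paralogue, was at 0.42 in ceres-2 footprints (adjusted p = 0.878) and -0.30 in ceres-1, where it has no p, in the authors' deposited table. EIF4A-III (AT3G19760), the helicase of the exon junction complex, is put by the authors' deposited table at a footprint value of 0.0036 (adjusted p = 0.999) and 0.07 (adjusted p = 0.938). Its smallest adjusted p in the authors' deposited table was 0.863, for ceres-1 efficiency, where the computed difference was 0.19 and the table's efficiency column has -0.0055.

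**Figure D4:**
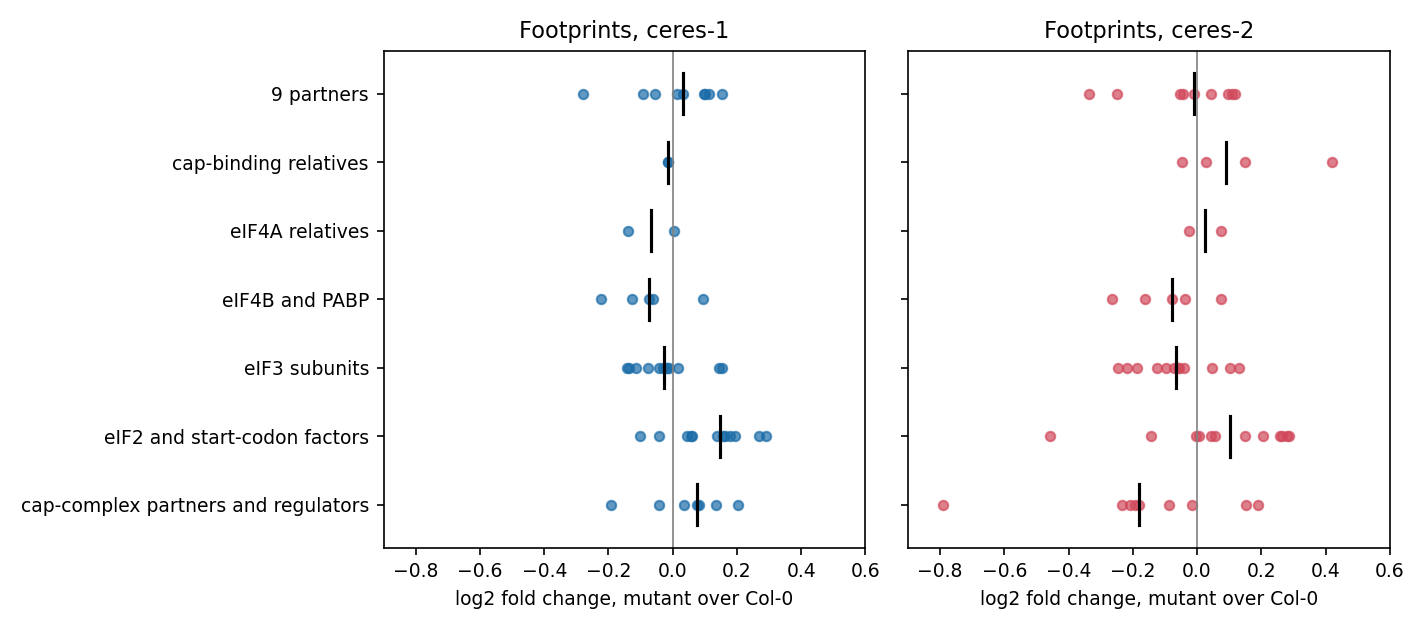
Footprint log2 fold change over Col-0 (x axis) in ceres-1 (left) and ceres-2 (right) of the genes with an adjusted p in that comparison, by list (rows). Points are genes of the authors' deposited table and black bars are list medians, from -0.08 to 0.15 in ceres-1. AT1G36730 at -0.46 and S6K1 at -0.79 in ceres-2 lie farthest below 0.

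The genes most like CERES were sought by the Euclidean distance between their 4 log2 fold changes, RNA and footprints in both mutants, among 18960 genes with an RNA adjusted p in both. The partners, with values between -0.34 and 0.19, lay too far from CERES to be among the nearest 3, so their absence carries no further result. The nearest was MRD1 (AT1G53480), at a distance of 3.56, with RNA at -3.52 and -6.34 and footprints at -3.44 and -3.30 in the authors' deposited table. MRD1 was called in RNA in each mutant (DESeq2 adjusted p = 1.53e-14 in ceres-1 and 0.00214 in ceres-2). Its ceres-1 value was the smallest adjusted p of all genes tested for RNA there, smaller than that of CERES. CAMS1 (AT1G78955), a triterpene cyclase gene, followed at 4.65, and AT5G18937 at 4.89. In RNA, CAMS1 was at -1.31 and -0.78 and AT5G18937 at -0.98 and -0.68 in the authors' deposited table, and neither was called. The 4 values share their Col-0 libraries, and neither gene nor MRD1 has an adjusted p in footprints.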

How the data were processed

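The 18 libraries, 9 of ribosome footprints and 9 of RNA, were assigned to genotype by their titles. Those not labelled as footprints were taken as RNA-seq. The submitters' processing notes name TopHat2 2.1.0 for alignment, featureCounts 1.6.2 for counting and DESeq2 for the comparisons, roles inferred from the tools. A ribosome profiling library kit was used, per the labels' protocols. Build, annotation, strand setting and shrinkage are not stated in those sources. The log2 fold changes and the adjusted p-values analysed are the authors' deposited values, in 12 columns, per the file headers. Depth per library is unknown. Gene order came from RefSeq TAIR10.1, to which 27420 of 27628 identifiers matched.

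Calls use the authors' adjusted p below 0.05. Efficiency was taken as the difference of the footprint and RNA log2 fold changes. Unadjusted p-values were bounded from the adjusted ones and the number of genes tested, and implied standard errors computed from the bounds, with pandas 2.3.3 and scipy 1.17.1. This step was run on data simulated under the assumptions given above, which checks the computation and not the assumptions. Named genes are the 10 members, the called gene or else the gene with the smallest adjusted p of each initiation list, the 3 genes on each side of CERES, and the 3 nearest to CERES in fold changes. Members and lists were chosen with earlier results of these data known.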

Additional observations from a re-analysis of the deposited data

How the results depend on the processing

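Counts of called members did not change at adjusted p thresholds of 0.01 or 0.1, with a minimum change of 1.5-fold, or after subtracting the median log2 fold change of all tested genes, in any of the 6 comparisons. CERES RNA had a DESeq2 adjusted p of 5.62e-08 and 6.19e-05, and the smallest of any partner was 0.553. The counts therefore could not move under such settings, and subtracting the median recomputed no p. Without CERES the RNA count went from 1 to 0 in ceres-1 and in ceres-2, because the member that was called is left out. With an unadjusted p below 0.05, an alternative chosen after seeing the data, the counts in footprints and efficiency were 0 as with the adjusted p. Subtracting the median turned no member's sign. In the authors' efficiency fold change column 2 of 18 partner values had the opposite sign, both in ceres-2: eIFiso4G1 at -0.0616 and eIF4A2 at -0.0182, since that column follows the footprint change. Another 12 of the 18 kept their sign but differed by over 1.5 times, such as eIF4G in ceres-1, at 0.13 by subtraction and 0.0038 in the authors' column. In the authors' column the lowest partner was CBE1, at -0.291 for ceres-1 and -0.300 for ceres-2, where by subtraction it was nCBP. No paired analysis was possible because values per library are not among those used here, and for the same reason no replicate could be left out in turn. Depth is unknown, so it cannot be said which partners have too few reads to show a change. For footprints the implied errors stand in for it, and for RNA nothing does.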
